A study of Mus musculus with 33 samples.

Results

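The expression change of MYC samples against wild-type livers was compared between mouse livers examined 4 days after MYC activation and established MYC tumours. The comparison used 20 of the 33 libraries of the series, chosen by their group labels: 3 MYC tumours, 7 wild-type livers of the tumour arm, 5 MYC livers at day 4 and 5 wild-type livers at day 4. For every gene the early effect was the mean of the MYC day 4 livers minus that of the wild-type day 4 livers, and the tumour effect was the mean of the MYC tumours minus that of the wild-type livers of that arm. The difference between the 2 effects, which share no control library, separates genes into early-only, tumour-only and lasting changes.

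The series measured total RNA of C57BL/6 livers and liver nodules by strand-specific sequencing. In the day 4 arm, mice of 6 to 8 weeks were wild type or carried R26-lslMYC, a MYC transgene at the Rosa26 locus that stays silent until Cre removes a stop cassette. Both genotypes received AAV8-TBG-CRE intravenously, an adeno-associated virus in which the hepatocyte-restricted TBG promoter drives Cre, so the wild-type livers of this arm had Cre as well. The tumours were nodules of Alb-CreERT2/R26-lslMYC mice, whose Cre is made under the albumin promoter and needs tamoxifen to act, and the labels give neither a treatment nor an age for them. The wild-type livers of the tumour arm were taken 4 days after intraperitoneal 4-hydroxytamoxifen (4-OHT), with no age and no Cre allele given. The tumour effect therefore sets MYC nodules against whole livers after 4-OHT. MYC, 4-OHT, age, Cre allele and kind of tissue cannot be told apart within it, and its name refers to the genotype of the tumours only. Every day 4 liver holds all cells of the organ, and a nodule may hold other proportions of them, so in these bulk samples fewer cells of a type and less RNA per cell cannot be told apart. The labels do not say that the libraries of a group come from separate animals, and p-values measure the spread between these libraries.

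MYC is a transcription factor that binds DNA with its partner MAX, preferably at the E-box CACGTG, and raises genes for ribosome assembly, nucleotide synthesis and cell-cycle entry. Adult hepatocytes rarely divide and hold little MYC, and sustained MYC in them gives rise to tumours that resemble fetal liver cells. Igf2 and H19 are neighbouring imprinted genes that are active in the fetal liver and silenced after birth.

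The day 4 arm had 4.379 to 6.691 M reads in genes per library and the tumour arm 6.649 to 9.824 M, with 15916 to 18145 and 16034 to 17185 genes above 0. Deposited RPKM summed to between 320814 and 367522 per day 4 library but only to between 68987 and 94641 in the tumour arm, and each library was therefore rescaled to a sum of 1000000; levels below are rescaled RPKM, and changes are on the log2(rescaled RPKM + 1) scale, which understates the change of low genes. Levels were compared between the arms only as a description, because virus, 4-OHT, age and RPKM scale cannot be told apart there. By Xist and Ddx3y, 2 of 5 wild-type and 3 of 5 MYC day 4 livers, 4 of 7 4-OHT livers and all 3 tumours read as male, and 1 MYC day 4 liver (replicate 5) held both transcripts. Epidermal keratins (Krt5, Krt14 and Krt17) summed to at least 1 deposited RPKM in 3 of 5 wild-type day 4 livers (9.869 to 18.309) and in MYC day 4 replicate 4 (4.411), to at most 0.359 in the other day 4 livers, and to at most 0.062 in the tumour arm, whose RPKM scale is lower. Hepatocyte markers were high in every group, with a summed level of 4239 to 5377 in wild-type and 3626 to 4627 in MYC day 4 livers, 3477 to 4140 in 4-OHT livers and 2397 to 3532 in the tumours.

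The allele used here is a MYC transgene at the Rosa26 locus, and the mouse gene Myc was measured first. Its level was 2.14, 8.45, 12.2, 8.8 and 7.03 in the wild-type and 13.8, 9.05, 10.3, 10.1 and 14.7 in the MYC day 4 livers. It ran from 13 to 31.4 (median 21.9) in the 4-OHT livers and was 16.4, 29 and 22 in the tumours. The groups overlapped in both arms and neither effect was called (log2 0.65 ± 0.31 SE, adjusted p = 0.166, and 0.07 ± 0.34, adjusted p = 0.893, limma). The labels do not give the species of the transgene, and whether its reads were counted under Myc was not tested.

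MYC raised many more genes than it lowered at day 4, and most of these rises were present in the tumours. Of 15543 genes tested, 2832 (18.2%) passed an adjusted p of 0.05 in the early effect (2076 higher and 756 lower) and 6042 (38.9%) in the tumour effect (3418 higher and 2624 lower). The libraries of the 2 groups did not overlap for 12.1% of genes early (9.27% higher and 2.81% lower) and for 32.3% in the tumour arm (18.4% higher and 13.8% lower). Genes that lead a class below were chosen among genes without overlap where they are called, so for them it is no separate result. For the other genes named below it is to be read against these shares. Of the genes higher at day 4, 1717 were also called higher in the tumours, which is 82.7% of the early and 50.2% of the tumour calls in that direction. Of the genes lower at day 4, 455 were also called lower in the tumours, 60.2% of the early but only 17.3% of the tumour calls. The tumours thus shared their rises with the day 4 livers more often than their falls by these counts, a contrast that was not tested. Among genes called lower, 97 fell by at least 2-fold on this scale at day 4 and 1324 in the tumours. The share of higher genes among calls was 73.3% early and 56.6% in tumours, but 61.3% early with each library rescaled to the median ratio, 63.3% with a term for keratin-bearing livers, 86.9% with the 6 keratin-free day 4 livers alone, and 75.8% in tumours on the deposited RPKM.

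**Figure D1:**
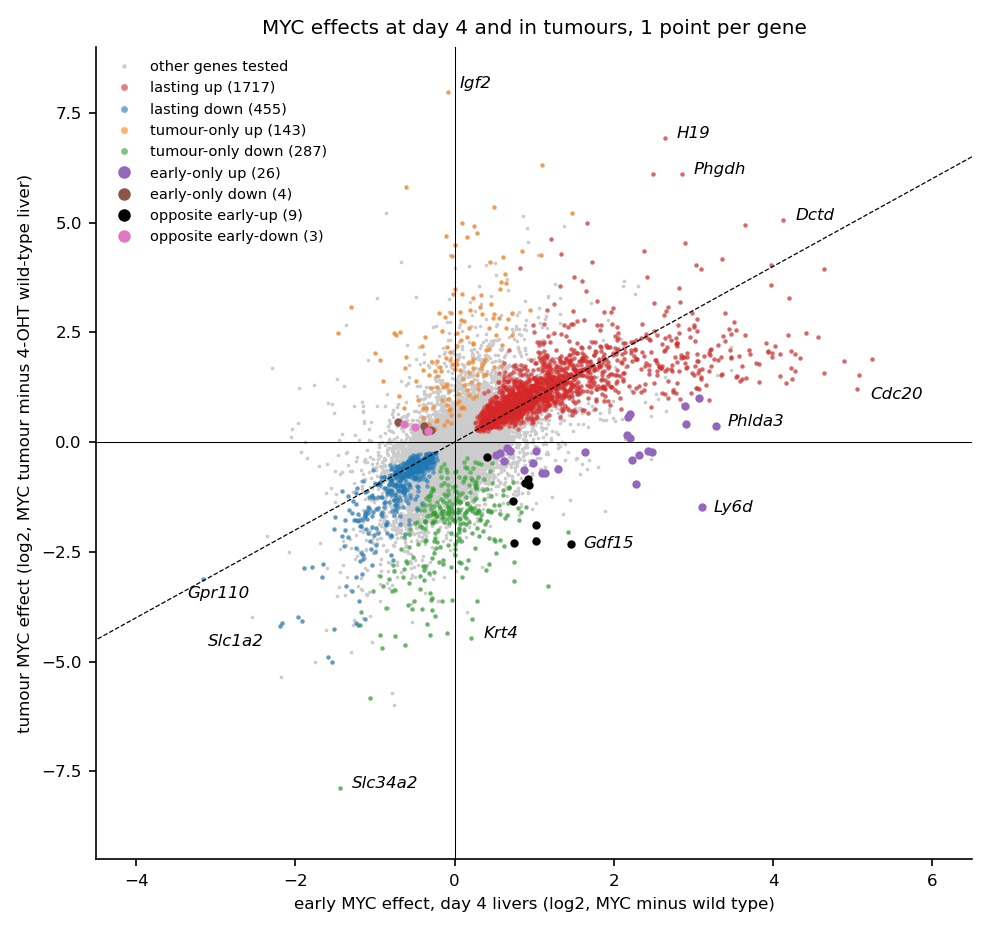
Early MYC effect (x axis, log2) against tumour MYC effect (y axis, log2) for the 15543 genes tested, 1 point per gene, coloured by class with the number of genes in each; the dashed line marks equal effects. Lasting genes have the same sign in both effects, and some lie far from the dashed line, such as Cdc20 at 5.08 early and 1.52 in tumours. Igf2 and Slc34a2 lie near the vertical axis at 7.97 and −7.88 in the tumours and Phlda3 near the horizontal axis at 3.28 in the day 4 livers.

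The effects themselves differed for 557 genes, 165 higher and 392 lower in the tumour effect, against 2612 at an unadjusted p under 0.05. Of these, 26 genes rose early only, 4 fell early only, 143 rose in tumours only and 287 fell in tumours only, and 12 moved in opposite directions. A further 618 genes called early and 3428 called in tumours passed neither the test in the other arm nor that of the difference, and are given to no class. Over all genes tested the 2 effects had a Pearson r of 0.62 and a Spearman rho of 0.66 (n = 15543 genes, which are not independent replicates). The median effect over all genes was 0.03 early and 0.02 in tumours.

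Genes of the growth programme rose together at day 4 and stayed raised in the tumours. Of 40 ribosome biogenesis factors tested, which process ribosomal RNA and assemble the subunits, 39 were called higher early and 39 in tumours, and none differed between the effects; 13.4% of all genes tested were called higher early, 22% higher in tumours, and 3.58% differed. Their median effect was 1.35 early and 1.24 in tumours. Nop56, a core protein of the small nucleolar particles that methylate ribosomal RNA, stood at 82.6, 65.2, 93.3, 79.9 and 70.5 in the wild-type and at 407, 328, 281, 389 and 215 in the MYC day 4 livers. It ran from 93.9 to 155 (median 134) in the 4-OHT livers and was 422, 303 and 374 in the tumours. Both MYC groups lay wholly above their controls, with effects of 2.01 ± 0.17 (SE; adjusted p = 1.49e-07) and 1.53 ± 0.19 (adjusted p = 6.69e-06, limma) and a difference of −0.48 ± 0.25 (adjusted p = 0.355). Nle1, a factor of large-subunit assembly, had the largest rise of the list in both effects, 2.35 ± 0.24 (adjusted p = 1.11e-06) and 2.38 ± 0.27 (adjusted p = 2.79e-06). The nucleolar protein gene Ncl rose by 1.56 and 1.64 and Dkc1, the pseudouridine synthase dyskerin, by 1.73 and 1.76.

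Nucleotide and folate synthesis followed the same pattern, with 19 of 26 members called higher in each effect and median effects of 1.07 and 1.18. Over all genes tested, 13.4% were called higher early and 22% in tumours. Ctps, which makes CTP, rose by 2.65 and 2.37, and Cad, which starts pyrimidine synthesis, by 2.28 and 1.89. The mitochondrial folate enzymes Mthfd1l and Mthfd2 rose by 1.99 and 1.82 early and by 3.06 and 2.55 in tumours. Aminoacyl-tRNA synthetases were called higher for 13 of 20 members early and 14 in tumours (1 lower, none early), mitochondrial ribosomal proteins for 24 and 47 of 76, and cytosolic ribosomal proteins for 26 and 45 of 80 (1 lower in tumours). Respiratory chain subunits stayed close to the median of all genes, with 1 of 78 higher and 1 lower early and 7 higher in tumours. Of 21 MYC target enzymes and regulators, 14 were called higher and 7 not called early. In tumours 12 were called higher, 1 lower and 8 not called. Of the classical MYC targets, Odc1 and Srm of polyamine synthesis rose by 0.87 and 1.98 early and by 0.79 and 1.54 in tumours, and Cdk4 by 1.03 and 0.95. Of 13 genes of glycolysis in growing cells, 5 were called higher early (Slc2a1, Pkm, Eno1, Pgam1 and Aldoa), and none was called lower in either effect. In tumours 3 were called higher (Pfkp, Pkm and Aldoa), a share near that of all genes (22%). The median effects of this list were 0.14 early and 0.24 in tumours. Ldha and Hk2 of this list were called in neither effect, with Ldha at −0.06 (adjusted p = 0.74) and −0.04 (adjusted p = 0.79) and Hk2 at 0.01 (adjusted p = 0.993) and 0.60 (adjusted p = 0.25).

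The largest lasting rises were those of Dctd, Smpdl3b, Hpdl and Amn. Dctd, the dCMP deaminase that supplies dUMP for thymidylate, was at 0.557, 0.975, 0.512, 0.423 and 0 in the wild-type and at 39.8, 18.2, 16.6, 44 and 16.4 in the MYC day 4 livers. It was between 0.445 and 1.64 (median 0.966) in the 4-OHT livers and at 62.3, 43.7 and 98 in the tumours. The groups did not overlap in either arm, and the effects were 4.13 ± 0.30 (adjusted p = 2.41e-08) and 5.06 ± 0.32 (adjusted p = 4.04e-09, limma), with at most 12 reads in any wild-type library. Smpdl3b, a sphingomyelinase-like phosphodiesterase, rose by 3.98 and 4.04, Hpdl, a mitochondrial dioxygenase, by 4.64 and 3.95, and Amn, the membrane anchor of the cobalamin receptor, by 3.65 and 4.95. In the MYC day 4 livers Hpdl and Amn were highest in replicate 4, at 110 and 114 against 21.6 to 45.8 and 5.31 to 30.4 in the other 4; this is the MYC day 4 liver with epidermal keratins, and without it their early effects were 4.27 and 3.01, both called.

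Promoters with and without the E-box CACGTG, which MYC and MAX bind, are shown with the motif in capitals; it reads the same on both strands. The sequences come from RefSeq on GRCm38.p6, 250 bases before to 50 after the annotated start, 5′ to 3′ on the strand of the gene, whereas the submitters' processing notes name mm9. Smpdl3b (chr4:132757122-132757421, minus strand) holds the motif from 42 bases after the start, Amn (chr12:111270846-111271145, plus strand) at −26 and Nle1 (chr11:82908346-82908645, minus strand) from 23 bases after it. These were chosen because they hold it. The lasting gene Nop56 (chr2:130274162-130274461, plus strand) and the early-only gene Phlda3 (chr1:135765835-135766134, plus strand) do not hold it. The letters were also absent from every listed promoter of the lasting genes Dctd, Hpdl, Ncl, Ppan, Cad, Odc1, Cdc20 and Ckap2, and present in 1 listed promoter each of Gdf15 and Ggt1, which are not lasting.
Smpdl3b: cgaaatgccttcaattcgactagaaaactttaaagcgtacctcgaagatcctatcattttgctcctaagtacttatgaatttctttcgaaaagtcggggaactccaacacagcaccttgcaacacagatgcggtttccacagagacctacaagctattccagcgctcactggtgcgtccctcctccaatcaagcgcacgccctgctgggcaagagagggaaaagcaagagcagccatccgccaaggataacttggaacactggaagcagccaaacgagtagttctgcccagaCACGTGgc
Amn: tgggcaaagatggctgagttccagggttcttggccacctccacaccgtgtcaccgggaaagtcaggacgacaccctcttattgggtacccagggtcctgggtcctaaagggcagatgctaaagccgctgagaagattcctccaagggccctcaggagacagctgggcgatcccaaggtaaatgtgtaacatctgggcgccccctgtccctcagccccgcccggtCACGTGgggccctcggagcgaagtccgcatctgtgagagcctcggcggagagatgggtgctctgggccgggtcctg
Nle1: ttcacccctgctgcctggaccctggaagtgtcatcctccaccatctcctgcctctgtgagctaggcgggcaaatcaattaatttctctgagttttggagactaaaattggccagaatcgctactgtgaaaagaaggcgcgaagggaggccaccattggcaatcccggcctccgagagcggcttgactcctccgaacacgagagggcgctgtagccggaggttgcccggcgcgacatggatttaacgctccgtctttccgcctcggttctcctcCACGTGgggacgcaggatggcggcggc
Nop56: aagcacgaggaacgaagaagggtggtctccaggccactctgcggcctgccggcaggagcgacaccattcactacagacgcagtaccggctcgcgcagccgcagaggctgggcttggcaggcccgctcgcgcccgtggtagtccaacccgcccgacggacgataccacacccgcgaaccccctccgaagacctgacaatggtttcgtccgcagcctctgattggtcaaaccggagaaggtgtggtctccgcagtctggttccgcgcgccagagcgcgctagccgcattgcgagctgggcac
Phlda3: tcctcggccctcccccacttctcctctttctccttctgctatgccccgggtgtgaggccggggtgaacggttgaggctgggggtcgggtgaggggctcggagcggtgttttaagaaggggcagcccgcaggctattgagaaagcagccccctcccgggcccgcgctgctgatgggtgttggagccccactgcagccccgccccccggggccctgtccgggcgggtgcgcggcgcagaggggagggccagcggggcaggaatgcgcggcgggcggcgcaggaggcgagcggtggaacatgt
CACGTG was present in 205 of 1392 lasting-up genes with a promoter in the table (14.7%), in 7 of 35 ribosome biogenesis genes (20%) and in 5 of 23 genes of nucleotide and folate synthesis (21.7%). It was present in 6 of 12 p53 response genes (50%), the highest share among the 6 lists examined, in 4 of 24 DNA replication genes (16.7%), in 2 of 31 genes of G2 and mitosis (6.45%) and in 0 of 14 interferon-stimulated genes. Among all tested genes it was present in 1308 of 11986 (10.9%), and among all promoters of the table in 2349 of 32851 (7.15%). The share was 8.77% of lasting-down, 9.01% of tumour-only up and 7.04% of tumour-only down genes, and 0 of 22 early-only up genes held it. These matches are counts of letters in this window and say nothing of binding.

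Cell-cycle genes rose in both settings, but the rise of mitotic genes was smaller against the tumour arm's controls. Over all genes tested, 13.4% were called higher early and 22% in tumours. Of 31 DNA replication genes, 30 were called higher in each effect, with medians of 1.86 and 1.52. For 2 members, Mcm5 and Mcm6 of the replicative helicase, the tumour effect was smaller. Of 35 genes of G2 and mitosis, 35 were called higher early and 34 in tumours, with medians of 3.39 and 1.81, and for 15 the tumour effect was smaller by the test of the difference, against 2.52% of all genes. Cdc20, the activator of the anaphase-promoting complex, was at 2.07, 1.90, 3.05, 2.36 and 5.43 in the wild-type and at 242, 161, 128, 121 and 54.3 in the MYC day 4 livers. It ran from 14.7 to 95.1 (median 55.6) in the 4-OHT livers and was 95.5, 139 and 175 in the tumours. Both MYC groups lay above their controls, and their means were close, at 141 ± 68.2 (SD, n = 5) and 137 ± 39.9 (SD, n = 3), while the means of the controls were 2.96 ± 1.45 (SD, n = 5) and 54.7 ± 30.5 (SD, n = 7). The effect fell from 5.08 ± 0.46 to 1.52 ± 0.50, a difference of −3.55 ± 0.68 (adjusted p = 0.00543, limma). The proliferation marker Mki67 (4.16 early, 1.34 in tumours, adjusted p of the difference = 0.00405), cyclin B1 (Ccnb1, 5.25 and 1.89, 0.0129) and the spindle protein gene Ckap2 (5.06 and 1.21, 0.0011) behaved alike.

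As a description of levels, the 2 kinds of wild-type liver stood further apart for mitotic genes than the 2 kinds of MYC sample; virus, 4-OHT, age and RPKM scale cannot be told apart here. Over the 35 mitotic genes the 4-OHT livers lay above the wild-type day 4 livers by a median log2 of 2.51 (34 of 35 genes by at least 2-fold), and the tumours above the MYC day 4 livers by 0.71, against 0.24 and 0.19 for all genes. The 43 lasting-up genes with a smaller tumour effect include the 15 mitotic genes, the 2 Mcm genes and 12 of the 61 histone genes tested. The number of mitotic genes with a smaller tumour effect was 23 with the 4 4-OHT livers whose titles start with S14 as controls and 1 with the 3 whose titles start with S15, at median differences of −2.0 and −1.07. Within this list the early call was made for 35 genes without any 1 of the 20 libraries, and the tumour call for 26 genes without MYC tumour replicate 3.

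**Figure D2:**
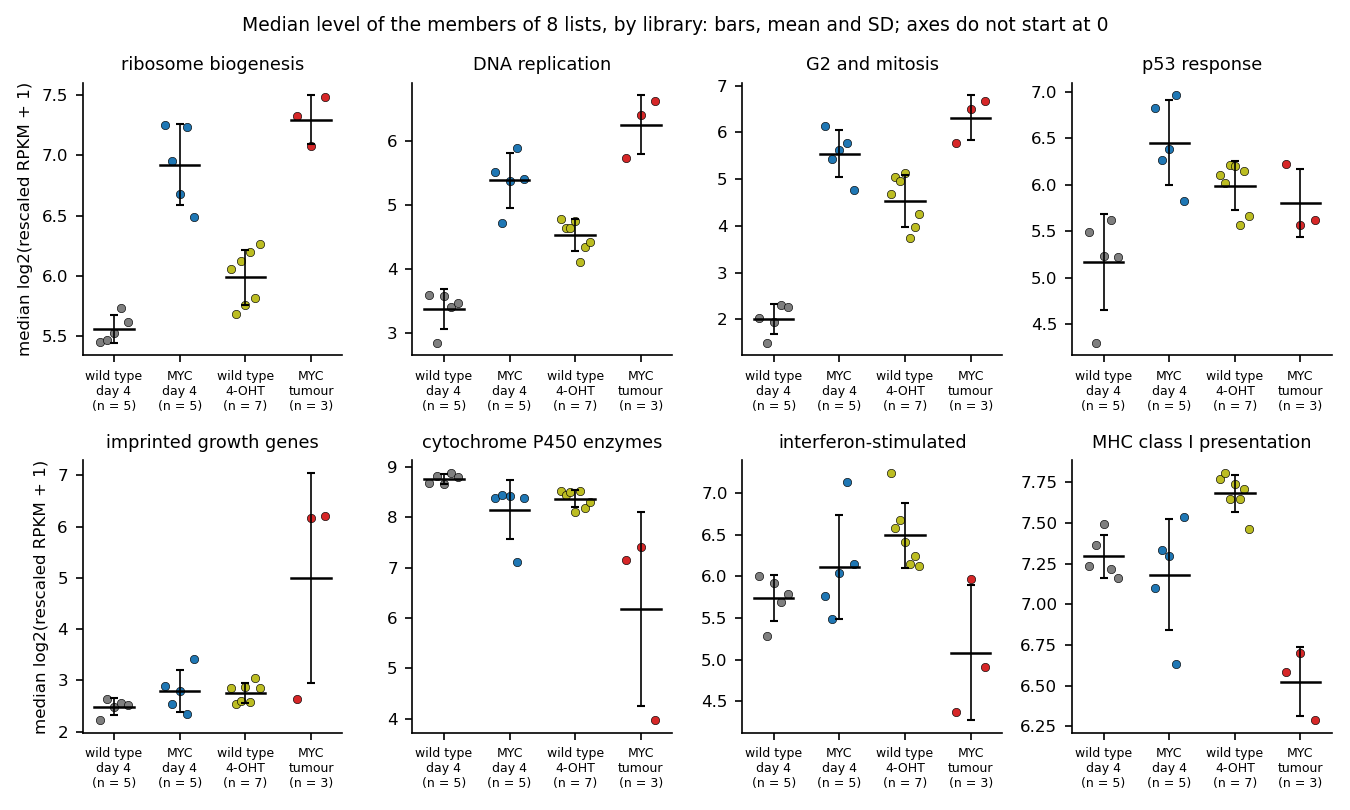
Median log2(rescaled RPKM + 1) over the members of 8 gene lists (y axis) in each of the 20 libraries (points, in replicate order) by group (x axis), with the mean and SD of each group; the y axes do not start at 0. The mitotic genes lie at 1.49 to 2.3 in wild-type day 4 livers and at 3.74 to 5.13 in 4-OHT livers, and the imprinted genes at 2.63, 6.16 and 6.21 in the 3 tumours.

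Lasting falls were fewer and led by Gpr110, Slc1a2, Lrit2 and P2ry4. The adhesion receptor gene Gpr110 was at 65.8, 44.7, 61.5, 43.7 and 48.8 in the wild-type and at 3.94, 16.8, 8.95, 0.171 and 6.27 in the MYC day 4 livers. It ran from 8.11 to 20.9 (median 12.2) in the 4-OHT livers and was 0, 3.01 and 0.0897 in the tumours. The groups did not overlap, with effects of −3.16 ± 0.53 (adjusted p = 0.000214) and −3.11 ± 0.58 (adjusted p = 0.000343, limma). Slc1a2, a glutamate transporter of pericentral hepatocytes, fell by 2.19 early and by 4.19 in tumours, Lrit2 by 1.90 and 2.87, and the nucleotide receptor gene P2ry4 by 1.79 and 2.85. All 4 genes were lowest in replicate 4 of the MYC day 4 livers. Without it the early effect on Slc1a2 was −1.57 and was not called (adjusted p = 0.0724), and it was also not called without wild-type day 4 replicate 2.

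Genes of several adult hepatocyte functions were called lower, and no list was tested for a difference between the settings. Of 23 cytochrome P450 enzymes, none was called early (4.86% of all genes were called lower) and 20 were called lower in tumours (16.9% of all genes), at medians of −0.55 and −2.23; only Cyp2c29 also differed between the effects. Without MYC tumour replicate 3 the number of P450 genes called lower was 13, and with the 500 most abundant genes left out it was 11 of the 13 members that remain. Cyp2c29 was at 441 to 565 in the wild-type and 302 to 461 in the MYC day 4 livers, at 261 to 366 in the 4-OHT livers and at 1.75, 228 and 8.23 in the tumours, all below the 4-OHT livers but with replicate 2 far above the other 2. Pericentral genes and targets of β-catenin were called lower for 3 of 20 members early and 18 in tumours, among them the Wnt antagonist Notum (log2 −1.18, adjusted p = 0.084, and −3.87, adjusted p = 1.35e-05) and the ammonium channel Rhbg (−0.41, adjusted p = 0.56, and −3.81, adjusted p = 6.27e-06). Both differed between the effects, as did Lect2, and the number that differed was 7 without MYC tumour replicate 2 and 8 without MYC day 4 replicate 4. The number called lower early was 1 without MYC day 4 replicate 4 or wild-type day 4 replicate 2, and 5, 7 and 6 without MYC tumour replicates 2 and 3 and MYC day 4 replicate 5. Glutamine synthetase, Glul, fell by 0.74 and 1.26, but its early call was lost without 6 of the 20 libraries, each left out alone. The early call was also lost in 6 of 14 other settings (adjusted p up to 0.525, limma). Fatty acid oxidation genes fell for 4 of 17 members early and 8 in tumours, led by Ppara (−0.96 in both effects) and Ehhadh (−0.76 and −1.65), and cholesterol synthesis genes for 7 of 20 members early and 6 in tumours. Genes of mature secreted proteins fell for 2 of 20 members early and 9 in tumours by at most 0.46 (Plg). The highest value of a library was only 525 to 1041. Changes of the most abundant liver genes may therefore be compressed, which was not tested. Hnf4a, the master regulator of hepatocyte identity, was at −0.25 (adjusted p = 0.153) and −0.35 (adjusted p = 0.0337), and its tumour call was lost without 6 of the 20 libraries, each left out alone (adjusted p up to 0.242), and in 5 of 14 other settings.

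The early-only class was small and led by Ly6d, Ddit4l, Phlda3 and Prrg4. Phlda3, a p53 target that restrains AKT signalling, was at 12.3, 9.06, 10.7, 7.45 and 11.9 in the wild-type and at 120, 93.9, 92.2, 208 and 66.1 in the MYC day 4 livers. It ran from 10.4 to 20.6 (median 16.2) in the 4-OHT livers and was 47.3, 7.63 and 21.6 in the tumours. The day 4 groups were far apart, whereas 1 tumour lay below all 4-OHT livers and the other 2 above them. Its effects were 3.28 ± 0.35 (adjusted p = 1.38e-06) and 0.37 ± 0.38 (adjusted p = 0.46), and they differed by −2.91 ± 0.51 (adjusted p = 0.00309, limma). The authors' deposited table gives Phlda3 a log2 fold change of 3.02 at day 4 and 0.657 in MYC tumours. Ly6d, which codes for a membrane-anchored surface protein, rose by 3.10, with 434 in MYC day 4 replicate 4 and 46.3 to 116 in the other 4 against 3.04 to 19.1 in wild-type livers, and had a tumour effect of −1.49 (adjusted p = 0.0868). Replicate 4 is the MYC day 4 liver with epidermal keratins. Without it the early effect on Ly6d was 2.59 (adjusted p = 0.00394), and with keratin-free day 4 livers alone it was 1.88 and not called (adjusted p = 0.133), nor was the difference (adjusted p = 0.0603); the part of the keratins was not tested. Ddit4l, an inhibitor of mTOR signalling, rose by 2.28 early and had −0.95 in tumours (adjusted p = 0.0863), and Prrg4 rose by 2.48 and had −0.24 (adjusted p = 0.698). Early-only falls were limited to 4 genes, among them Abca8a (−0.71 early, 0.46 in tumours, adjusted p of the difference = 0.0146) and Dpp8 (−0.30, 0.27, 0.0322), which lost its difference call without 6 and its early call without 5 of the 20 libraries, each left out alone, and its early call in 7 of 15 other settings (adjusted p up to 0.686).

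Most p53 response genes were called higher at day 4. Of 17 members, 12 were called higher early (13.4% of all genes), 3 were called higher and 3 lower in tumours, shares near those of all genes (22% and 16.9%), and 2, Phlda3 and Gdf15, had a smaller tumour effect by the test of the difference; the medians were 0.98 and 0.37. The death receptor gene Eda2r rose by 3.29 ± 0.55 early and had 1.52 ± 0.60 in tumours (adjusted p = 0.0504), where it was at 92.8, 3.91 and 20.4. Bax, the pore former of mitochondrial apoptosis, rose by 1.44 early and had 0.62 in tumours (adjusted p = 0.0694). In the authors' deposited table the tumour log2 fold changes are 2.166 for Eda2r (adjusted p = 0.0002308) and 0.597 for Bax (adjusted p = 0.001453), so both are called in tumours there. Cdkn1a, the CDK inhibitor p21, was called in neither effect (1.45, adjusted p = 0.077, and 1.05, adjusted p = 0.177). With only the keratin-free day 4 livers the number of members higher early was 4. The number higher in tumours was 0 without MYC tumour replicate 3, 6 without replicate 2 or without wild-type day 4 replicate 2, and 5 without MYC day 4 replicate 4 or wild-type day 4 replicate 1.

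Gdf15, a secreted stress cytokine of the TGF-β family, was called in opposite directions. It was at 34.1, 18.6, 22.2, 41.9 and 14.6 in the wild-type and at 131, 66, 44.1, 93 and 44.1 in the MYC day 4 livers. In the 4-OHT livers it ran from 182 to 264 (median 197), and in the tumours it was 49.9, 27.7 and 48.1. The groups did not overlap in either arm, and the highest levels of all were those of the 4-OHT controls. The effects were 1.46 ± 0.29 (adjusted p = 0.00117) and −2.32 ± 0.32 (adjusted p = 2.06e-05), a difference of −3.79 ± 0.43 (adjusted p = 4.30e-05, limma). The tumours themselves lay between the 2 day 4 groups in their mean, at 41.9 ± 12.3 (SD, n = 3) against 26.3 ± 11.4 and 75.7 ± 37.0 (SD, n = 5 each).

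**Figure D3:**
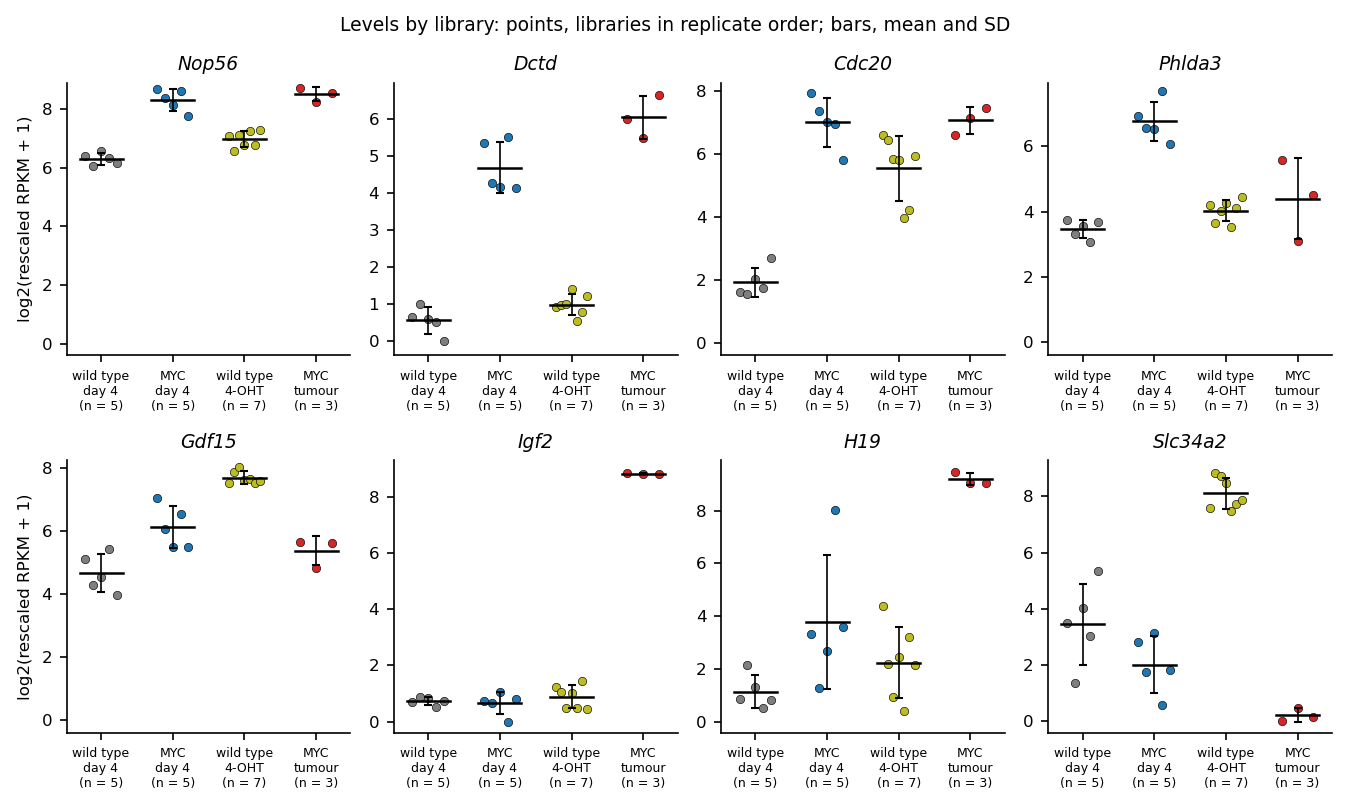
log2(rescaled RPKM + 1) of 8 genes (y axis) in each library (points, in replicate order) of the 4 groups (x axis), with the mean and SD of each group on that scale. Nop56 and Dctd are raised in both MYC groups, Phlda3 in the MYC day 4 livers, Igf2 in the 3 tumours at 455 to 471, and Gdf15 and Slc34a2 are highest in the 4-OHT livers.

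The largest tumour-only rise was that of Igf2, the fetal growth factor. Its level was 0.628, 0.826, 0.809, 0.43 and 0.66 in the wild-type and 0.651, 0.564, 1.08, 0 and 0.756 in the MYC day 4 livers. It was between 0.353 and 1.74 (median 1.02) in the 4-OHT livers and 471, 455 and 458 in the tumours. No day 4 liver and no control had more than 18 reads, and every tumour had at least 4512. The early effect was −0.09 ± 0.23 (adjusted p = 0.85) and the tumour effect 7.97 ± 0.25 (adjusted p = 2.55e-14), which differed by 8.06 ± 0.34 (adjusted p = 7.29e-12, limma). The antisense transcript Igf2os and the microRNA gene Mir483, which lie within the Igf2 locus and are named after their values were seen, were also tumour-only, but whether the counting kept strands apart is not given in the sources used here.

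H19, the non-coding neighbour of Igf2, was at 699, 531 and 525 in the tumours and at 0.325 to 20.2 (median 3.53) in the 4-OHT livers. In the MYC day 4 livers it was 9.07, 1.46, 5.5, 259 and 11, against 0.814, 3.48, 1.5, 0.464 and 0.801 in the wild-type livers. The day 4 groups overlapped and replicate 4 stood far above the others, whereas the tumour groups were apart. Its tumour effect was 6.93 ± 0.97 (adjusted p = 2.57e-05), and its early effect of 2.64 ± 0.89 (adjusted p = 0.0432, limma) put it among the lasting genes but was lost without 10 of the 20 libraries, each left out alone. The early effect without that replicate, the MYC day 4 liver with epidermal keratins, was 1.58 (adjusted p = 0.105). The difference between the effects was 4.29 ± 1.31 (adjusted p = 0.0772).

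Of 18 imprinted growth genes, 2 were called higher early and 10 higher and 1 lower in tumours, at medians of −0.05 and 2.07. Over all genes 13.4% were called higher early, and 22% higher and 16.9% lower in tumours. Igf2, Peg3 and Grb10 were tumour-only rises and Ndn a tumour-only fall, and 3 higher and 1 lower differed between the effects (1.06% and 2.52% of all genes). Apart from Igf2 and H19, the 8 other genes called higher were lowest in MYC tumour replicate 1, where the growth factor receptor adaptor gene Grb10 was at 23.4 against 276 and 236, and Peg3 at 35.3 against 211 and 161. Dlk1, a Notch-family ligand of fetal hepatoblasts, was at 0, 23.7 and 16 in the tumours. Without replicate 1 of the tumours 11 imprinted genes differed in the higher direction, and without replicate 3 of them 6 were called higher in tumours.

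Oncofetal genes were called higher for 7 and lower for 1 of 13 members in tumours, against 22% and 16.9% of all genes. Early, 1 of them, Ly6d, was called higher, a share below that of all genes (13.4%). Without MYC tumour replicate 3 the number higher in tumours was 4, and without replicate 1 the number with a larger tumour effect was 5 in place of 3. The RNA-binding protein gene Igf2bp3 was at 107, 104 and 98.5 in the tumours and at 8.5 to 16.3 in the 4-OHT livers, with effects of 0.46 (adjusted p = 0.339) and 3.15 (adjusted p = 1.89e-06). Lin28b, which blocks let-7 maturation, rose by 3.34 in tumours and the desaturase gene Scd2 by 3.08, and both differed from their early effects of 0.33 and 0.32. Alpha-fetoprotein, Afp, rose in tumours by 2.73 (adjusted p = 0.00381) from 20.8, 379 and 389, of which the first lay within the 4-OHT range of 10.6 to 37.4, and its difference from the early effect was not called (adjusted p = 0.106). Gpc3, a cell-surface proteoglycan, was at 6.03, 48.6 and 134. The other leading tumour-only genes were Bex2 (27.9, 252 and 257), the secretory-pathway cargo receptor gene Tmed6 (2.05, 87.8 and 162) and the glutathione-degrading enzyme gene Ggt1 (2.9, 229 and 259), all with means under 4 in the other groups. In all 3 the lowest tumour was replicate 1. The Ggt1 difference (4.86, adjusted p = 0.0265, limma) lost its call without 3 of the 20 libraries, each left out alone. It also lost it in 6 of 14 other settings (adjusted p up to 0.319), and the Tmed6 difference in 3 of 13 (adjusted p up to 0.0873).

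**Figure D4:**
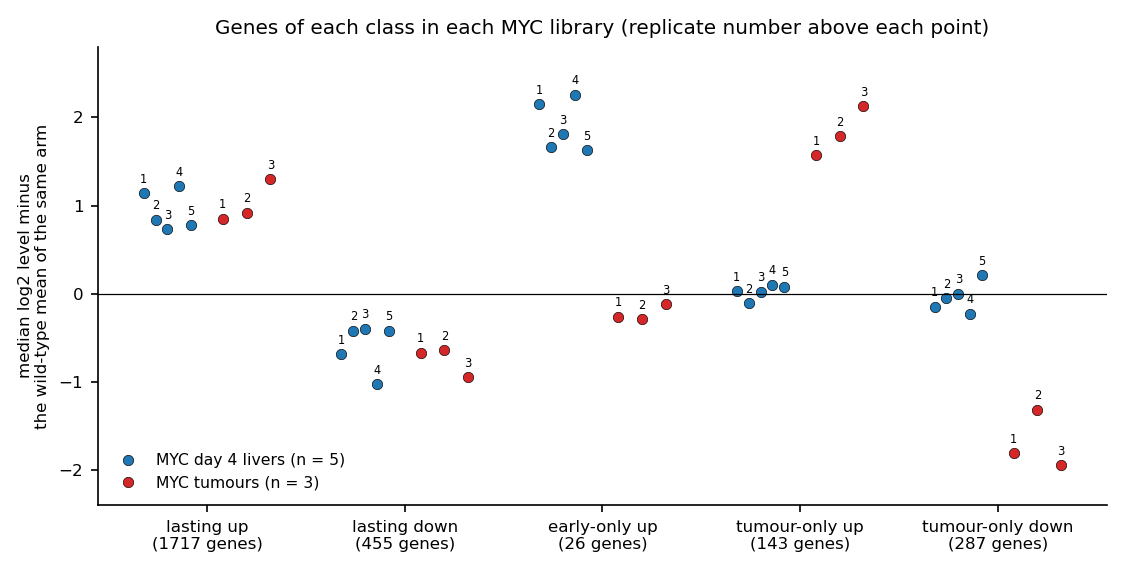
Median log2 level of the genes of 5 classes relative to the wild-type mean of the same arm (y axis) in each MYC library, with replicate numbers above the points, for the 5 MYC day 4 livers and the 3 MYC tumours. Lasting-up genes lie at 0.73 to 1.22 in the day 4 livers and 0.85 to 1.30 in the tumours, and tumour-only genes lie near 0 in all 5 day 4 livers.

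The classes were carried by every library of a group to different degrees, which is a description of values that define them. The 1717 lasting-up genes had a median of 0.73 to 1.22 above the wild-type mean in the 5 MYC day 4 livers and of 0.85, 0.92 and 1.30 in the tumours. The 143 tumour-only rises had a median of −0.11 to 0.10 in the day 4 livers and of 1.57, 1.79 and 2.13 in the tumours. MYC day 4 replicate 4 was the most changed liver for lasting genes in both directions. Among lasting-up genes, 15 had a larger tumour effect; Phgdh, the first enzyme of serine synthesis, rose by 2.86 early and 6.11 in tumours, and Pycr1 of proline synthesis by 0.69 and 2.10, both named after their values were seen.

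Falls limited to the tumours included genes that were high in the 4-OHT livers alone. Slc34a2, a phosphate transporter, was at 10.4, 1.58, 15.2, 7.25 and 39.3 in the wild-type and at 6.02, 2.36, 7.8, 0.493 and 2.54 in the MYC day 4 livers. It ran from 176 to 458 (median 234) in the 4-OHT livers and was 0, 0.407 and 0.129 in the tumours. The tumour arm did not overlap, with an effect of −7.88 ± 0.60 (adjusted p = 3.80e-08) and a difference of −6.45 ± 0.82 (adjusted p = 0.00013, limma), and the controls of the arms were further apart than the day 4 groups. Krt4, a keratin of stratified epithelia, was at 21.2 to 43.6 in the 4-OHT livers and under 1 in each of the other 13 libraries. Sult5a1, a sulfotransferase gene, fell by 5.83 and Slc10a2, the ileal-type bile acid transporter gene, by 4.04 in tumours alone. Over the 287 tumour-only falls the 4-OHT livers lay above the wild-type day 4 livers by a median of 0.59 and the tumours below the MYC day 4 livers by a median of −1.15.

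Interferon-stimulated and antigen-presentation genes made up a second group of tumour-only falls. Of 17 interferon-stimulated genes, 1 was called higher early (Cxcl10; 13.4% of all genes), 13 lower in tumours (16.9%), and 12 had a lower tumour effect by the difference (2.52%). As a description, the 4-OHT livers lay above the wild-type day 4 livers by a median log2 of 0.82 over this list. The tumours stood at −0.72 against the MYC day 4 livers. For the MHC class I genes below these medians were 0.36 and −0.73, and for all genes 0.24 and 0.19. The part of the controls was not tested. Irf7, a transcription factor that amplifies the interferon response, was at 192, 130, 220, 204 and 161 in the wild-type and at 202, 197, 225, 219 and 350 in the MYC day 4 livers. It ran from 234 to 334 (median 303) in the 4-OHT livers and was 43.1, 151 and 80.8 in the tumours. The day 4 groups overlapped and the tumour arm did not, with effects of 0.38 ± 0.23 (adjusted p = 0.288) and −1.88 ± 0.26 (adjusted p = 2.09e-05, limma). Ifit3, which restrains viral RNA, fell by 2.02 in tumours, Ifit1 by 2.06 and Ifi44 by 2.36. Of 11 MHC class I genes, none was called early and 10 fell in tumours, among them the immunoproteasome subunit genes Psmb8 (−1.61) and Psmb9 (−1.75), the peptide transporter genes Tap1 (−1.51) and Tap2 (−1.79) and their activator Nlrc5 (−1.58), and 6 differed between the effects. With the 3 S15 livers as the only tumour-arm controls, 1 interferon-stimulated and 1 MHC class I gene differed, and without MYC tumour replicate 3 the number of MHC class I genes that differed was 3.

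Macrophage and endothelial markers were lower in the tumours than in the 4-OHT livers, and the markers of other non-hepatocyte cells gave no common direction. Over all genes tested, 13.4% were called higher and 4.86% lower early, and 22% and 16.9% in tumours. Of 14 macrophage markers, 1 was called higher early (Cd68) and 11 lower in tumours, and their summed level was 948 to 2872 in the tumours against 3006 to 3922 in the 4-OHT livers, and 1585 to 2871 and 1972 to 2993 in the wild-type and MYC day 4 livers. The Kupffer cell lectin gene Clec4f was at 16.2, 191 and 21.6 in the tumours and at 292 to 392 in the 4-OHT livers. Without MYC tumour replicate 1 the number of macrophage markers called lower was 6. Of 18 endothelial markers, 1 was called lower early and 13 in tumours, with summed levels of 653 to 1066 in tumours and 1277 to 1874 in 4-OHT livers. These sums were 1030 to 1708 in wild-type and 615 to 1264 in MYC day 4 livers, so the tumours lay within the range of the latter. Lymphocyte markers summed to 21.3 to 158 in tumours and 58.6 to 165 in 4-OHT livers, with 2 of 13 called lower, a share near that of all genes (16.9%). Neutrophil markers summed to 145 to 1648 in the tumours and 155 to 549 in the 4-OHT livers. Of these 8 markers 1, Elane, was called higher, a share below that of all genes (22%). Stellate and fibroblast markers were called higher for 3 of 15 members in tumours (Col1a1, Acta2 and Lox), a share near that of all genes (22%). They were called lower for 5 (Lrat, Reln, Dcn, Hgf and Ecm1), against 16.9% of all genes, and none of 11 cholangiocyte markers was called in either effect. Every tested marker of these 4 lists was above 0 in at least 1 library of each group, and the part of these cells in the falls above was not tested. Acute phase genes of hepatocytes fell too, for 2 of 12 members early and 10 in tumours, with Orm2, Apcs and Orm1 differing between the effects. The number of acute phase genes that differed was 1 when any of 8 libraries was left out alone (MYC tumour replicate 3, 4-OHT replicates 2, 4, 5 and 6, MYC day 4 replicate 3 and wild-type day 4 replicates 1 and 2), and 5 without wild-type day 4 replicate 4.

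**Figure D5:**
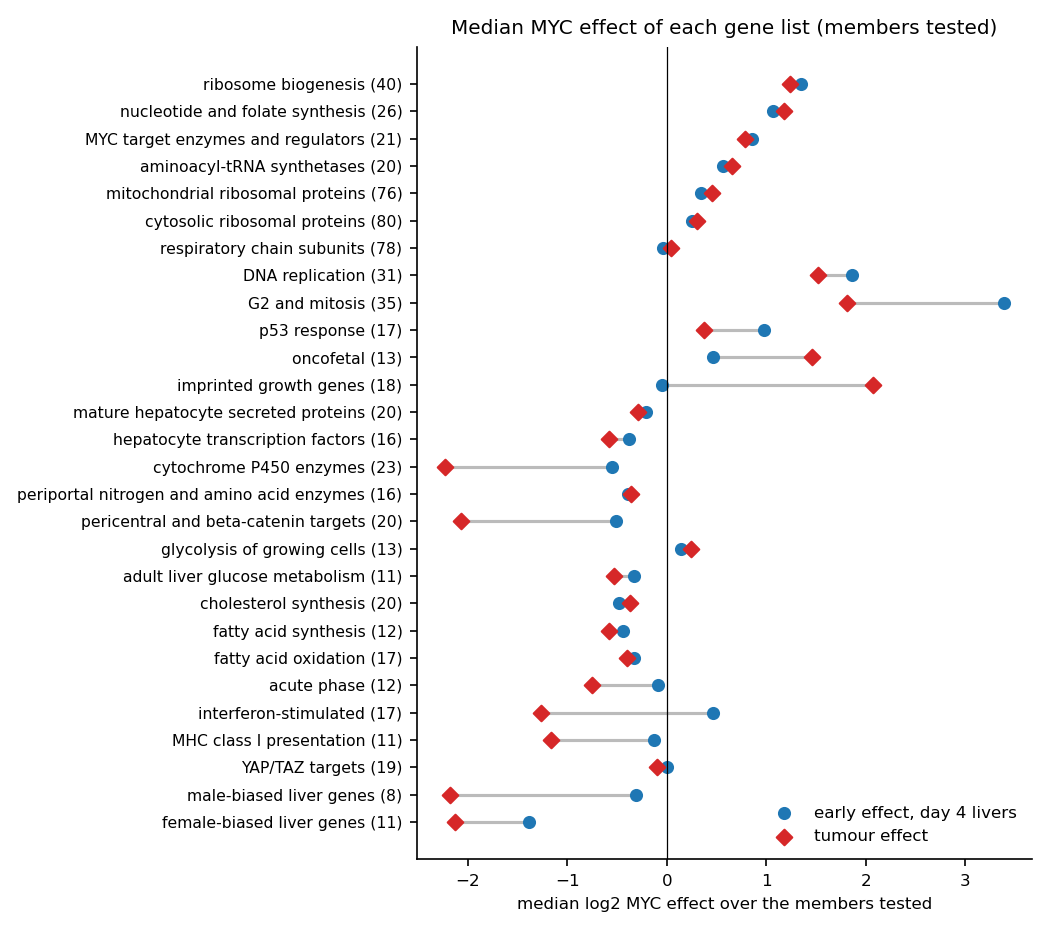
Median log2 MYC effect over the tested members of each gene list (x axis) for the early effect in day 4 livers (circles) and the tumour effect (diamonds); lists are on the y axis with the number of members tested. Ribosome biogenesis lies at 1.35 and 1.24, G2 and mitosis at 3.39 and 1.81, interferon-stimulated genes at 0.46 and −1.27, and imprinted growth genes at −0.05 and 2.07.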

How the data were processed

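Total RNA of mouse livers and liver nodules was sequenced from TruSeq stranded libraries, per the labels' protocols. The authors deposited RPKM per gene and library, and a table of their own comparisons with log2 fold changes and p-values. Per the submitters' processing notes, TopHat2 2.0.8, TopHat, SAMtools, featureCounts 1.4.5-p1, DESeq2 and the mm9 build were named, with no role or order. Whether duplicate reads were removed is not given in the sources used here.

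RPKM columns were rescaled to a sum of 1000000 and tested as log2(value + 1) with limma 3.58.1 (R 4.3.3; trended moderation, 16 residual degrees of freedom) on 20 libraries and 4 groups, for genes with a rescaled value of at least 1 in at least 3 libraries. P-values were adjusted by Benjamini-Hochberg over all genes tested, with a threshold of 0.05. A lasting gene was called in both effects in the same direction. An early-only or tumour-only gene was called in that effect and in the difference, and not in the other effect. Reads were recovered from the RPKM steps for all 20485 genes with a value (100.0% whole within 0.001) and give the depth. They were tested with voom as an alternative added after seeing the data, which called 1877 genes higher and 448 lower early and 4043 and 2779 in tumours.

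Named genes were, per class, the 4 (opposite classes 2) with the largest difference of effects, or for lasting classes the largest smaller effect, among genes with a group mean of at least 10 and no overlap between groups where called. To these were added a panel of liver, growth and MYC genes and, per list and contrast, up to 4 called members with the largest change. Predicted genes, small RNAs and pseudogenes were left out of the class rule. Members and lists were chosen with earlier results of these data known. Every column belonged to a sample of the series (0 did not). The test was tested on simulated data. Promoters were matched by symbol for 11343 and by synonym for 643 genes. Python 3.11.15, pandas 2.3.3, numpy 2.4.6 and scipy 1.17.1 were used.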

Additional observations from a re-analysis of the deposited data

Results flagged for a closer look

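The levels of 14 of 118 gene and group combinations held 1 library far from the others, by the ratio of its gap to the group's range. The 3 MYC tumours are too few for this rule and were not examined by it. Groups whose highest level was under 10 were also left out. The cutoffs pass about 1 in 20 groups of independent, normally distributed values. These levels were not log-transformed and the genes share libraries, so that rate need not hold here and an excess over chance was not tested. In the MYC day 4 livers the highest library stood apart for Hpdl (110), Amn (114), Ly6d (434), H19 (259), Gpc3 (17.0), Hk2 (13.0), Alb (840) and Cps1 (647), and the lowest for Dpp8 (58.8), Hnf4a (347) and Glul (152). In the 4-OHT livers the highest library stood apart for P2ry4 (71.9), Prrg4 (10.9) and H19 (20.2).

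The tumour effect differed from the early effect by limma's test of the difference, on the log2 scale, for Ly6d (−4.59), Ddit4l (−3.23), Phlda3 (−2.91), Prrg4 (−2.71), Gdf15 (−3.79), Mki67 (−2.82), Ccnb1 (−3.36) and Cdc20 (−3.55). It was higher for Igf2 (8.06), Bex2 (5.20), Tmed6 (4.88), Ggt1 (4.86), Abca8a (1.17) and Dpp8 (0.56), and lower for Slc34a2 (−6.45), Sult5a1 (−4.77), Krt4 (−4.68) and Slc10a2 (−4.26).

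In libraries outside the comparisons, which also carry the Ex3 β-catenin allele, Igf2 was at least 463 in each of 3 MYC and Ex3 tumours, and H19 reached 120 in 1 of 5 MYC and Ex3 day 4 livers.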

How the results depend on the processing

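Of 82 called effects of named genes, 49 were called in every setting that gave them a value, 33 lost a call at least once and 0 reversed. At most 15 alternatives and 20 left-out libraries applied to an effect, and fewer where the gene was not tested in a setting or where the arms were fitted apart. The difference of effects was called for 557 genes, but for 234 on the deposited RPKM, 910 with all 33 libraries, 875 with quality weights, 364 with the S14 and 121 with the S15 4-OHT livers, and 362 with keratin-free day 4 livers. Tumour-only genes numbered 430, but 145, 726, 688, 253 and 102 in the first 5 of these settings. Early-only genes numbered 30, but 53 with all 33 libraries, 58 with quality weights, 4 with S15 and 10 with keratin-free livers; genes in opposite directions numbered 12, but 22 with quality weights, 5 with S14 and 7 with S15. With S15 the tumour effect had 3898 genes, and with keratin-free livers the early effect had 1003 and the lasting class 905. The S14, S15 and keratin-free settings also hold fewer libraries. The cause of these changes, the number of libraries included, was not tested.

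Leaving out 1 library gave 2041 to 3250 early, 3900 to 6433 tumour and 355 to 1071 difference calls, and 1670 to 2411 lasting, 6 to 28 opposite, 22 to 53 early-only and 259 to 839 tumour-only genes. Without MYC tumour replicate 1 there were 1071 difference calls, 839 tumour-only, 53 early-only and 28 opposite genes; without MYC tumour replicate 3, 3900 tumour and 355 difference calls, 259 tumour-only and 7 opposite genes; without MYC day 4 replicate 4, 857 difference calls and 720 tumour-only genes. Opposite genes also numbered 7, 6 and 7 without 4-OHT replicate 7, MYC day 4 replicate 1 and wild-type day 4 replicate 5. Each arm fitted by itself gives no difference of effects. No paired analysis was possible because replicate numbers only follow the order of the samples and the titles of compared groups share no numbers. The number of tumours, 3, limits what could be detected, and so may a compression of the values of abundant genes.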
